A study of Mus musculus with 32 samples.

Results

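The 30 histone cluster genes described here are the genes of the PRO-seq table whose symbol starts with Hist1h, Hist2h, Hist3h or Hist4h and that had a read in the untreated total columns. All 30 such symbols met that condition, of 26440 genes in the table, and none was a Hist4h gene. They comprised 24 genes of the Hist1 cluster on chromosome 13, 3 genes of the Hist2 cluster on chromosome 3 and 3 genes of the Hist3 cluster on chromosome 11 (mm10). By product there were 5 genes for the linker histone H1, 5 for H2A, 12 for H2B, 3 for H3 and 5 for H4. GENCODE M21 annotates 70 genes with such symbols, and it lists 28 of the 30 as protein coding. The others, Hist1h2aj and Hist3h2bb-ps, are annotated as pseudogenes. The names and positions chose these genes, so no measured difference entered the choice beyond the presence of a read.

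The cells were TX1072, a female mouse embryonic stem (ES) cell line from a cross of the strains B6 and Cast. All groups carried the same alleles, a doxycycline-responsive promoter before Xist on the B6 X chromosome and an rtTA insertion in Rosa26, so that doxycycline at 1 µg/ml switches on Xist from one X. PRO-seq, which sequences RNA labelled by engaged polymerases in isolated nuclei, was done at 24 h in duplicate (24 h A and 24 h B) and once each at 0.5, 1, 2, 4, 8 and 12 h, against duplicate untreated cells (0 h A and 0 h B), all undifferentiated and in serum, LIF and 2i. Polyadenylated RNA was sequenced from undifferentiated cells at 0, 2, 4, 8, 12 and 24 h of doxycycline and from cells labelled as differentiated at 0, 8, 16, 24 and 48 h, with 2 libraries per time. The labels give no doxycycline-free library at a later time, so time in culture, doxycycline, Xist and, in the second RNA course, differentiation cannot be told apart. No label says that the replicates came from separate cultures, so the p-values below measure only the spread between these libraries.

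Histone cluster genes make the bulk of the histones that package newly copied DNA. H2A, H2B, H3 and H4 form the core around which DNA is wound, and H1 binds the linker DNA between cores. Most of these genes have no intron, are transcribed mainly in S phase from clustered copies, and end their mRNA in a conserved stem-loop that is bound by Slbp in place of a poly(A) tail. Some of them also give a polyadenylated form, and the PRO-seq and poly(A)-selected libraries therefore read different stages of the same genes.

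The 3' stem-loop is shown because it separates these transcripts from those that a poly(A) selection is built to catch. A stem-loop of 16 bases was found in the GENCODE M21 transcript models of 20 of the 30 genes, in 5 versions. The version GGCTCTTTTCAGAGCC stood in 11 genes and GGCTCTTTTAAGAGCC in 4. Each version had 6 base pairs in its stem. The sites of 8 genes follow, DNA letters of the RNA strand with 5 bases on either side, capitals marking the stem-loop.
Hist1h1c: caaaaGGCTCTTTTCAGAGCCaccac
Hist1h2ag: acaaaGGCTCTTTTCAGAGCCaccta
Hist1h3c: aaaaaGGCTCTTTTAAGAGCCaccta
Hist1h2bk: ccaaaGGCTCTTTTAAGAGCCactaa
Hist1h4i: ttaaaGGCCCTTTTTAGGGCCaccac
Hist2h4: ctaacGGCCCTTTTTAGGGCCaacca
Hist1h4b: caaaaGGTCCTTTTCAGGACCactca
Hist1h4a: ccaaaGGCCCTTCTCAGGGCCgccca
The Hist1h1c and Hist1h2ag sites share 1 stem-loop although one codes for a linker and the other for a core histone. The H4 genes shown carried versions that no H1, H2A, H2B or H3 gene had in its model. The model of Hist1h1a ended after 15 of the 16 bases, so a missing stem-loop in a model does not show that the gene lacks one. The letters AATAAA, the usual poly(A) signal, stood in the last 50 bases of the models of 10 genes.

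Promoter letters are shown for one well-transcribed gene of each product, since H2A, H2B, H3 and H4 are made in step. RefSeq promoters (GRCm38.p6) matched 24 of the 30 genes, and the 120 bases before each start site follow, 5′ to 3′ on the gene's strand. Capitals mark 3 motifs on either strand. The first is CCAAT, the letters of the CCAAT box. The second is TATAAA, those of the TATA box. The third is ATTTGCAT, an octamer known from H2B promoters.
Hist1h1a, chr13:23763548-23763667, plus strand: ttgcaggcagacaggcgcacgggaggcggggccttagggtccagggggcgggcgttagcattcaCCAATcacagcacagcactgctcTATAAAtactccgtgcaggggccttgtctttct
Hist1h2ag, chr13:22042950-22043069, minus strand: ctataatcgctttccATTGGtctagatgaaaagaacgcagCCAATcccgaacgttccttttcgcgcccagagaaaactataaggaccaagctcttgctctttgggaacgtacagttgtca
Hist1h2bk, chr13:22035701-22035820, plus strand: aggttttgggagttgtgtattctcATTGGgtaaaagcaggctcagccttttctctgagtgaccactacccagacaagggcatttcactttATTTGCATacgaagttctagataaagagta
Hist1h3c, chr13:23745522-23745641, minus strand: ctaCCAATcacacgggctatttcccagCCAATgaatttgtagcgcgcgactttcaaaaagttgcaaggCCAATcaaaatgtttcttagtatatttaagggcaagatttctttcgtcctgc
Hist1h4i, chr13:22041363-22041482, minus strand: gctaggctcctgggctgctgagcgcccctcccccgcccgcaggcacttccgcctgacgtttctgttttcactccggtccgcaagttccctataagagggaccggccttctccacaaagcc
The Hist1h4i window holds none of the 3 motifs, and the Hist1h3c window holds CCAAT in 3 places. Within 250 bases before the start site, on either strand, CCAAT stood in 21 of the 24 histone promoters (87.5%) and in 33.8% of 32851 RefSeq promoters. All 20 promoters of H1, H2A, H2B and H3 genes held it, and 1 of 4 promoters of H4 genes did. TATAAA stood in 12 of 24 (50.0%), against 12.4% of all promoters. ATTTGCAT stood in 7 of 24 (29.2%), against 1.60%, and all 7 were promoters of H2A or H2B genes. These are letter matches and show no binding. The entries for Hist1h2aj, Hist1h2bc, Hist1h3a, Hist2h2be, Hist2h4 and Hist3h2bb-ps were not used here.

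The PRO-seq libraries held 3041199 (4 h) to 6443286 (24 h B) allele-assigned reads, that is, reads that could be given to the B6 or the Cast genome. The table also gives RPKM, the authors' reads scaled by gene length and library size, which are used for levels because they are per length. Xist read 26.8 and 30.3 RPKM in the 24 h libraries, against 0.192 and 0.123 in the 0 h libraries, as their labels say. All 8 naive ES cell markers averaged at least 1 RPKM in PRO-seq, and the 6 listed fibroblast markers summed to 4.34 to 8.18 RPKM, with Dcn at 0 throughout. The untreated libraries stood apart from each other for the histone genes. Nascent RPKM was higher in 0 h B than in 0 h A for 29 of the 30, by a median of 1.53-fold, against 1.05-fold for 10619 other genes with a mean of at least 5 RPKM. Between 24 h A and 24 h B the median was 1.14-fold, with 20 of 30 higher in 24 h A.

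Histone cluster genes were among the most transcribed of the table. At 0 h, 20 of the 30 had a mean of at least 100 nascent RPKM, and the same number lay in the top 1% of genes. H4 genes made 31.7% of the summed nascent RPKM of the 30, H1 genes 27.7%, H2B genes 16.5%, H3 genes 14.9% and H2A genes 9.18%, and the Hist1 cluster made 93.5%. Part of each level is uncertain. Between 0% and 93.1% of the 50-base windows of a member's transcript also occur in another histone transcript, and the handling of reads with several matches is not stated in the sources used here.

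Among the linker histones, Hist1h1a (chr13:23763717-23764358, plus strand) averaged 1149 ± 246 nascent RPKM at 24 h and 1076 ± 377 at 0 h (SD, n = 2 each). Hist1h1c (chr13:23738808-23740367, plus strand) averaged 747 ± 209 RPKM at 24 h and 736 ± 140 at 0 h. For both genes the difference was smaller than the gap between the 2 libraries of either time. Hist1h1b averaged 529 ± 271 RPKM at 24 h and 400 ± 65.1 at 0 h. Hist1h1t, the testis H1, averaged 9.09 ± 0.632 RPKM at 24 h and 8.30 ± 5.06 at 0 h, far under the other 4 H1 genes. No 50-base window of Hist1h1a, Hist1h1b or Hist1h1t was shared with another histone transcript.

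Among the core histones, the H4 gene Hist1h4i (chr13:22040636-22041362, minus strand) had the highest nascent level of all 30. It averaged 1332 ± 146 RPKM at 24 h and 1256 ± 223 at 0 h. The H3 gene Hist1h3c (chr13:23745013-23745501, minus strand) averaged 752 ± 226 RPKM at 24 h and 690 ± 150 at 0 h. Neither gene had groups that stood apart. The H2A gene Hist1h2ag (chr13:22042460-22042944, minus strand) averaged 523 ± 129 RPKM at 24 h and 429 ± 239 at 0 h, and the H2B gene Hist1h2bk (chr13:22035870-22036345, plus strand) 519 ± 146 and 427 ± 236. Hist1h2ag and Hist1h2bk share 78.9% and 74.2% of their 50-base windows with other histone transcripts, so reads may be split between copies. The H3 gene Hist1h3a and the H4 genes Hist1h4a, Hist1h4b, Hist2h4 and Hist1h4j had 0 h means between 258 and 433 RPKM, with Hist1h4j lowest and Hist1h3a highest. The H2A gene Hist1h2ab averaged 316 RPKM at 0 h, the H2B gene Hist1h2bj 293 and the H3 gene Hist1h3b 150. Together with Hist1h4i, Hist1h1a, Hist1h1c, Hist1h3c, Hist1h2ag, Hist1h2bk and Hist1h1b, these 8 are the 15 highest.

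The remaining genes were lower and more varied. The H1 gene Hist1h1e averaged 146 RPKM at 0 h, and Hist2h2bb, Hist1h2bb, Hist1h2bp and Hist1h2be, all H2B genes, lay between 122 and 143.6 RPKM. Hist1h2bc, Hist1h2bl and Hist2h2be, also H2B, had 59.9, 35.7 and 28.4. The testis genes Hist1h2aa, Hist1h2ba and Hist1h1t, the pseudogene Hist1h2aj and the 3 Hist3 genes are the 7 under 20 RPKM. The listed span of Hist1h2be, 37383 bases, overlaps Gm11398 and part of the GENCODE model of Hist1h1e on the same strand. It does not reach the listed span of Hist1h1e. On the same strand Hist2h2bb also overlaps Gm42743 and Hist3h2a overlaps Trim17. The levels of Hist1h2be, Hist2h2bb and Hist3h2a therefore cannot be given to 1 gene alone. 2 genes had 24 h and 0 h libraries that did not overlap, 1 higher and 1 lower at 24 h, whereas 16.6% of 18121 genes with a mean of at least 0.5 RPKM were higher in this way and 22.8% lower. The members' count is under that background. Hist1h2bb read 222 and 192 RPKM at 24 h, against 101 and 176 at 0 h, and Hist3h2ba read 5.32 and 7.72 at 24 h, against 9.21 and 10.3 at 0 h.

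**Figure D1:**
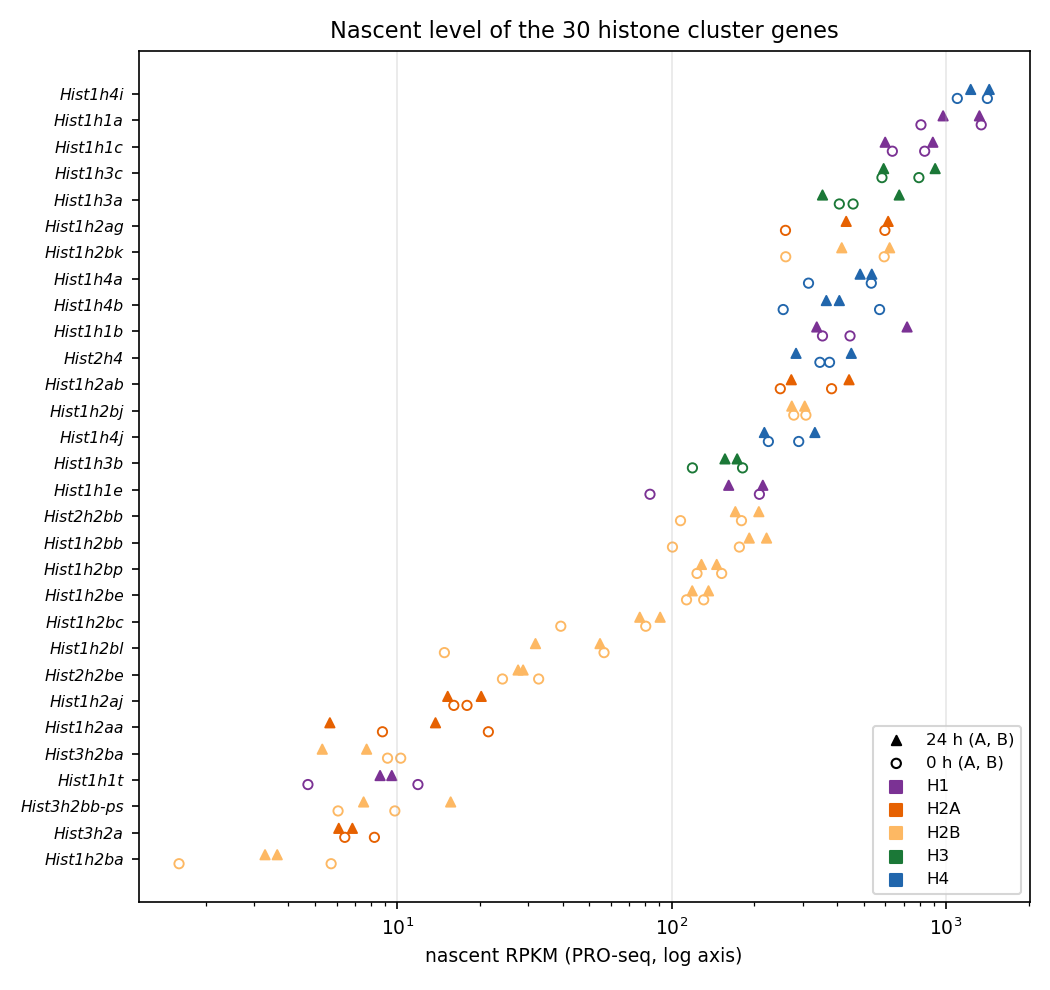
Nascent level (PRO-seq RPKM, log axis) of each of the 30 histone cluster genes, listed by their 0 h mean, with 1 mark per library and colours for H1, H2A, H2B, H3 and H4. The marks of 24 h and 0 h lie among each other in nearly every gene, and the levels run from a 0 h mean of 1256 RPKM (Hist1h4i) to 3.67 RPKM (Hist1h2ba).

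Across the PRO-seq course the nascent level of the histone genes went in no single direction with time. The summed nascent RPKM of the 30 was 6859 and 10228 in the untreated libraries A and B. It was then 6025, 9250, 10300, 6827, 5073 and 6278 in the single libraries from 0.5 to 12 h, and 10546 and 8427 in the 24 h libraries A and B. The lowest library was 8 h and the highest 24 h A, 2.08-fold apart, and the 0 h libraries alone spanned most of that range. The sum was lowest at 8 h in each of the 5 products, and the highest library exceeded it by 2.95-fold for H2A, 2.57-fold for H3, 2.27-fold for H2B, 2.05-fold for H1 and 1.88-fold for H4. The times from 0.5 to 12 h have 1 library each, so these differences have no replicate check.

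Hist1h4i read 1098 and 1413 RPKM at 0 h, 842, 1375, 1507, 854, 770 and 828 at 0.5, 1, 2, 4, 8 and 12 h, and 1436 and 1229 at 24 h. Hist1h1a read 809 and 1342 RPKM at 0 h, 882, 1354, 1395, 835, 669 and 828 at the same times in between, and 1322 and 975 at 24 h. Hist1h3c read 584 and 796 RPKM at 0 h, then 452, 704, 733, 479, 346 and 560, and 912 and 592 at 24 h. All 3 genes were low at 0.5, 4, 8 and 12 h and high at 1 and 2 h, and each had its lowest value at 8 h. Hist1h2ag read 260 and 598 RPKM at 0 h, then 208, 358, 581, 222, 161 and 206, and 432 and 615 at 24 h. Its neighbours in level followed: Hist1h2bk ran between 183 (12 h) and 644 RPKM (2 h).

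At 8 h, 23 of the 30 genes lay below both 0 h libraries, against 44.9% of 18121 genes with a mean of at least 0.5 RPKM. At 0.5 h also 23 did, against 46.3%, and at 12 h 17, against 39.2%. The 15 below at 4 h (34% of genes) and the 14 above both at 2 h (33.4%) and in 24 h A (32.9%) were nearer to the share of all genes. The median log2 difference from each gene's 0 h mean was -0.70 for the histone genes at 8 h, against -0.11 for 10619 other genes, -0.47 against -0.10 at 0.5 h, and 0.29 against 0.02 at 2 h. The medians of some other gene lists were also lowest in the 8 h library. The median level of 43 DNA replication and S phase genes was also lowest at 8 h, at 23.3 RPKM, with its highest at 2 h, 27.9 RPKM. The median of 18 mitosis and G2 genes was lowest at 8 h, 17.98 RPKM, and highest at 2 h, 26.9 RPKM. That of 11 replication-independent histone genes was lowest at 8 h too, 25.4 RPKM, and highest in 24 h A, 48.8 RPKM. In 0 h A and 0 h B these medians were 26.5 and 26.8 RPKM for S phase and 21.4 and 25.3 for mitosis and G2. For replication-independent histones they were 26.5 and 35.0 RPKM, so the 8 h value was close to that of 0 h A. The part of cell cycle or of library in these values was not tested, and in such bulk samples fewer cells transcribing a gene and less RNA per cell cannot be told apart. Library depth at 8 h, 4988158 allele-assigned reads, was within the range of the others.

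**Figure D2:**
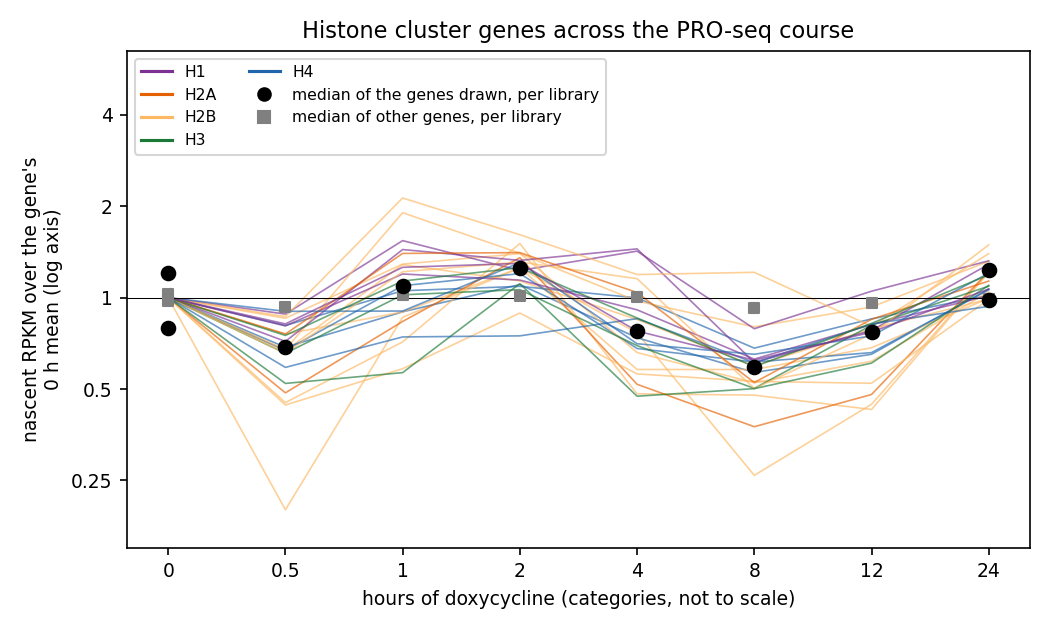
Nascent RPKM over each gene's own 0 h mean (log axis) along the doxycycline course (0 to 24 h, categories), with lines for the histone genes coloured by product, black points for their median and grey squares for the median of other genes. The histone median is lowest at 8 h, while that of other genes stays near 1.

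The nascent level of most histone genes varied with the mean of the other members across libraries. The correlation of a gene with the mean of the other members had a median of 0.81 over the 10 PRO-seq libraries and was at least 0.7 in 22 genes. Hist1h4i (0.93), Hist1h2ag (0.93) and Hist1h2bb (0.92) were highest. The pseudogene Hist1h2aj (-0.28) and Hist3h2ba (-0.08), both under 20 RPKM, were lowest. These points share each library's depth and scaling, and the shared windows can add to them. Among 10619 genes outside the clusters, those most alike to the member mean were Gm37643 (r = 0.98), Sap18, Gm27010, G3bp1 and Rpgrip1 (all 0.97, 10 libraries). The share of those 10619 genes at 0.7 or more was not counted, so the pattern is not shown to be particular to histone genes. 3 pairs of members lie head to head. Hist1h2ag and Hist1h2bj, an H2A and an H2B gene whose listed starts are 269 bases apart, had r = 0.82, the testis pair Hist1h2ba and Hist1h2aa, 305 bases apart, had r = 0.42, and Hist3h2bb-ps and Hist3h2a, 172 bases apart, had r = 0.34. Both genes of each of the last pairs are under 20 RPKM at 0 h.

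No histone cluster gene passed the test of nascent transcription between 24 h and 0 h. The test was edgeR's quasi-likelihood test on allele-assigned counts over all genes, with Benjamini-Hochberg adjusted p under 0.05. Of 26 members with enough reads, 0 passed, against 0.0119% of 16870 genes tested, and 0 had an unadjusted p under 0.05. DESeq2 also called 0. The median log2 change was 0.22, with 15 of 26 above 0, and the median over all genes was -0.01. The smallest adjusted p was 0.674, for Hist1h3a (log2 1.03, SE 0.54). Hist1h4i changed by -0.19 (SE 0.13) and Hist1h1a by -0.26 (SE 0.18), and neither passed.

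The result rests on 1 library. Without 0 h B the same test called 10 members and 1259 genes, and 9 of the 10 members were then higher at 24 h. Few reads stand behind some of these: Hist1h4a had 1 allele-assigned read in 0 h A and 111 in 0 h B, at 315 and 534 RPKM. Levels did not bear out every direction. Hist3h2a, at log2 1.10 in that fit, read 6.85 and 6.11 RPKM at 24 h and 8.25 in 0 h A. Hist1h2bj (4.95) read 274 and 305 against 278, and Hist1h4i (-0.37) 1436 and 1229 against 1098. Hist1h3a and Hist1h4j lay on both sides of 0 h A. Hist1h2ag, Hist1h2be, Hist1h2bk, Hist1h3c and Hist1h4a read more in both 24 h libraries. A histone gene yielded a median of 0.402 to 0.804 allele-assigned reads per RPKM in a library, against 15.0 to 32.3 for other genes. Counts of these genes are thus sparse although their levels are high. Among members with reads in every library, that yield varied between libraries by 1.82-fold (Hist1h2bp) to 70.7-fold (Hist1h4a). The part of gene length or of shared sequence in the yield was not tested. On the RPKM values limma called 0 of 30, against 0.0166% of 18121 genes, with 1 at an unadjusted p under 0.05, 24 of 30 above 0 and a median of 0.13. The sign of single members can differ between the measures, and Hist1h1a was at 0.12 on RPKM.

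The share of nascent reads from the B6 allele did not pass the test of change either. In edgeR's allelic model, 0 of 24 members averaging 20 allele reads or more changed their B6 to Cast ratio between 24 h and 0 h, against 0.844% of 13392 genes, and DESeq2 called 0. 1 member, Hist1h3c, had an unadjusted p under 0.05, with a log2 change of -0.74 (SE 0.32, adjusted p 0.617). All 30 genes are autosomal, and Xist acts on the B6 X chromosome in this line. Among genes of the lists, the X-linked histone chaperone gene Rbbp7 (-1.17) and the X-linked DNA polymerase gene Pola1 (-0.92) fell in the same test.

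The B6 and Cast copies differed at 0 h in 11 of the 24 histone genes tested (edgeR, adjusted p under 0.05), against 34.7% of all genes. 7 were higher from B6 (20.5% of all genes) and 4 lower (14.1%). Hist2h2be, an H2B gene, had B6 shares of 78.4% and 71.4% at 24 h and 82.2% and 76.4% at 0 h, from 74 to 191 reads per library, and its 0 h log2 ratio was 1.91 (SE 0.27, adjusted p 1.51e-06). Hist1h1a had 61.6% and 64.1% at 24 h and 66.3% and 60.5% at 0 h, from 1947 to 3704 reads, with a log2 ratio of 0.79 (SE 0.09, adjusted p 1.92e-08). The linker gene Hist1h1c lay on the other side, with 30.9% and 41.2% at 24 h and 30.7% and 37.2% at 0 h, and a log2 ratio of -0.93 (SE 0.17, adjusted p 8.62e-05). Its B6 share was under 50% in all 10 libraries (28.3% to 41.2%), whereas that of Hist1h1a was above 50% in all 10 (60.5% to 72.5%).

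The H4 gene Hist1h4i, with the most reads after Hist1h1a, had B6 shares of 60.6% (95% Wilson interval 58.3% to 62.9%) and 56.6% at 24 h and 60.4% and 56.6% at 0 h. Its 0 h log2 ratio was 0.49 (SE 0.09, adjusted p 3.33e-05). Its deposited allele counts were equal in 24 h B and 0 h B (1748 B6 and 1343 Cast reads in each), at 1229 and 1413 RPKM. It was the only one of 3779 genes with at least 500 allele reads in 0 h B for which both counts were equal in these libraries. Hist1h3c (1.03), Hist1h2ag (0.84), Hist1h2ab (0.79) and Hist3h2a (0.60) were also higher from B6 at 0 h. Hist2h4 (-0.85), Hist1h4j (-0.64) and Hist1h2be (-0.56) were lower. DESeq2 called 7 of the 11, without Hist2h4, Hist3h2a, Hist1h2ag and Hist1h4j, and the edgeR count was 6 without 0 h B.

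The other members with at least 300 allele reads at 0 h did not pass. Hist1h4b ran from 50.8% to 59.6% B6 over the 10 libraries, Hist1h2bc from 48.5% to 66.7%, Hist1h2bp from 40.4% to 56.6% and Hist1h2bb from 41.7% to 62.2%. Hist1h1b ran from 33.7% to 76.3%, the widest range of these 5. The median of Hist1h2bc over the libraries, 61.1%, lay above that of Hist1h4i, 57.8%, but the test was of the 0 h ratio. At 0 h the log2 ratio of Hist1h2bc was 0.36 (SE 0.20), and that of Hist1h4i, which has more reads, was 0.49 (SE 0.09). The median B6 share of 13042 autosomal genes was 51.1% at 0 h, with 29.1% and 74.1% at the lower and upper 5%. Allele calls of copies that share sequence also depend on which bases tell the strains apart in each copy, which was not analysed here.

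In polyadenylated RNA the histone genes were scarce. The undifferentiated RNA table lists 13 of the 30, and the differentiating one also 13, with 9 in both and 13 in neither. The median level of those listed at 0 h was 0.238 RPKM in undifferentiated cells and 0.261 RPKM in the differentiating course. 3 genes stood above the rest in both tables, Hist1h2bc (an H2B gene), Hist1h4i (H4) and Hist1h1c (H1), with 0 h means of up to 4.29 RPKM. Next in undifferentiated cells came Hist1h1a, Hist1h1b, Hist1h2bj, Hist1h4b, Hist1h2bk, Hist1h2bb and Hist1h4a, between 0.530 and 0.176 RPKM. In the differentiating course it was Hist1h1a, Hist1h2bp, Hist1h2bb, Hist2h2be, Hist1h4b, Hist1h3b and Hist1h4j, between 0.547 and 0.141 RPKM. Hist1h3c and Hist1h3a, which are among the 5 highest by nascent level, are in neither table.

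Ratios of nascent to polyadenylated level at 0 h were taken for genes with at least 0.5 nascent and 0.1 polyadenylated RPKM. The median ratio was 698 among 11 histone genes in the undifferentiated table, against 1.46 over 12779 genes. Of the 11, 9 lay in the top 1%. In the differentiating table the median was 380 among 13, against 1.51 over 12983 genes, with 11 in the top 1%. Hist1h4a had the highest ratio of the 11 in the undifferentiated table, 2408, and Hist1h1a had 2029 there and 1966 in the other. Hist1h4j (3315) and Hist1h3b (2062) were left out in undifferentiated cells because their polyadenylated level was under 0.1 RPKM. Hist1h2bc had the lowest, 18.1 and 13.96. The PRO-seq and RNA tables were normalised separately, so these ratios order genes and are not amounts. Nascent reads also fall in introns and beyond the mature end, and no test was made.

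**Figure D3:**
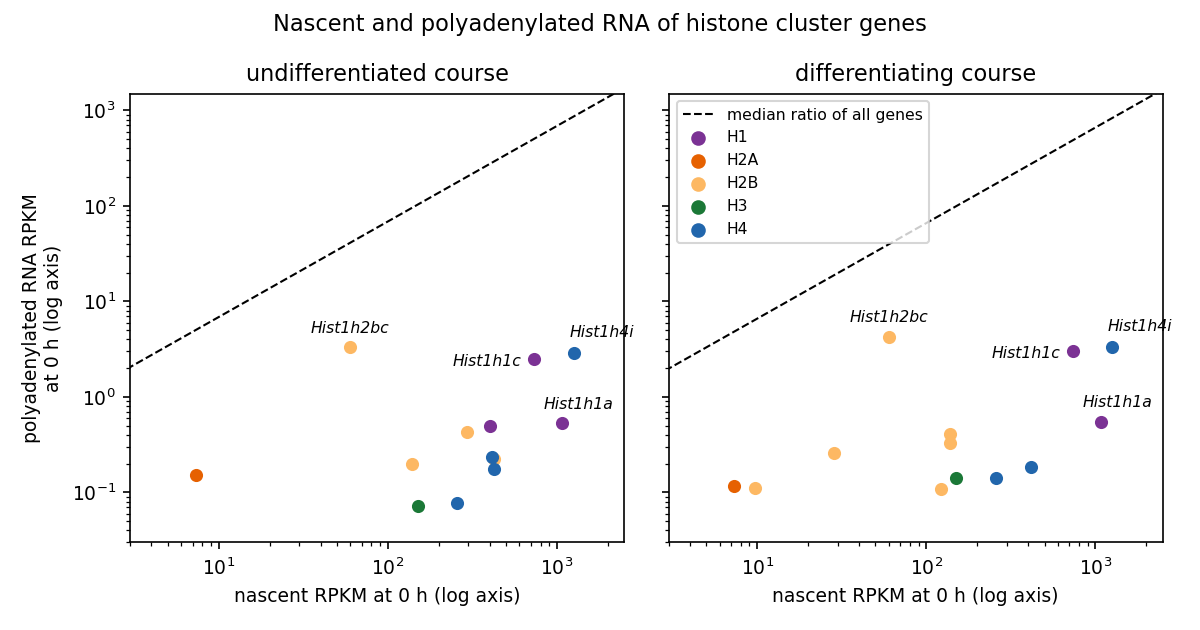
Polyadenylated RNA RPKM at 0 h against nascent RPKM at 0 h (both log axes) for the histone cluster genes listed in each RNA course, coloured by product. A dashed line marks the median ratio of all genes (1.46 undifferentiated, 1.51 differentiating), and other genes are not drawn. The histone genes lie below the line, with Hist1h2bc nearest to it.

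Genes with and without a stem-loop in the model were both among those listed. Of the 20 genes with one, 10 were in the undifferentiated table, with a median of 0.210 RPKM at 0 h, and of the 10 without, 3 were, with a median of 0.530 RPKM. In the differentiating table it was 10 with (median 0.164 RPKM) and 3 without (0.547 RPKM). Both medians of the genes without one are the value of Hist1h1a, whose model ends after 15 of the 16 bases. Hist1h1a may therefore be misplaced in that group, and the medians do not compare the 2 kinds of gene. Hist1h1c and Hist1h4i, with a stem-loop (sites above), reached 2.48 and 2.87 RPKM at 0 h in undifferentiated cells, and Hist1h2bc, without one in its transcript model of 1156 bases, 3.30 RPKM.

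None of the 5 testable histone RNAs passed the test of doxycycline time in undifferentiated cells. At 24 h against 0 h, limma on log2(RPKM + 0.5) called 0 of 5, against 0.00861% of 11612 genes, and 0 had an unadjusted p under 0.05, with a smallest adjusted p of 1.00. The 5 were Hist1h1a, Hist1h1c, Hist1h2bc, Hist1h2bj and Hist1h4i, and their log2 changes ran from -0.10 to 0.29. The titles number these libraries 1 to 6 and 7 to 12, each set holding every time once, and the sets differed. Hist1h1c read 3.70, 6.21, 4.09, 4.596, 4.40 and 6.02 RPKM at 0, 2, 4, 8, 12 and 24 h in titles 1 to 6, and 1.25, 1.53, 1.22, 1.31, 1.62 and 1.18 in titles 7 to 12. The first set was higher at 6 of 6 times, without overlap, by 2.85-fold.

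Hist1h2bc read 4.70, 10.8, 5.34, 5.87, 6.06 and 5.51 RPKM in titles 1 to 6, and 1.90, 2.12, 1.96, 2.84, 2.58 and 1.60 in titles 7 to 12. Hist1h4i read 4.07, 7.60, 4.28, 4.69, 3.72 and 3.75 RPKM, and 1.67, 2.29, 1.91, 1.94, 2.13 and 1.52. Both were higher in titles 1 to 6 at 6 of 6 times, by 2.52-fold and 2.11-fold. The 2 h library of titles 1 to 6 differed from the rest of its set in other genes too. Pou5f1 read 1113 RPKM there, against 554 to 670 at the other times, and Zfp42 read 114, against 206 to 230. The values of that library enter the folds given here. Among 11612 genes, 23.3% were higher in titles 1 to 6 at every time, and Hist1h1c, Hist1h2bc and Hist1h4i ranked 4, 10 and 46 by the mean log2 difference. Within titles 1 to 6 the log2 change at 24 h was 0.63 for Hist1h1c, 0.21 for Hist1h2bc and -0.10 for Hist1h4i, and within titles 7 to 12 it was -0.06, -0.19 and -0.10.

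Some other transcripts differed between the title sets. Malat1, a nuclear long RNA, read 7.40 to 38.5 RPKM in titles 1 to 6 and 63.5 to 114 in titles 7 to 12. Neat1 read 1.47 to 2.21 and 6.55 to 12.9, and both were chosen after their values were seen. Snora73b differed less, at 52.6 to 58.9 and 70.1 to 94.1. Scarna2 overlapped between the sets, at 0 to 0.363 and 0.0341 to 0.105. Of 40 S phase genes, 33 were higher in titles 1 to 6, with a median log2 difference of 0.21, and 19 of 20 histone chaperone genes were, with 0.17. Among the cell cycle inhibitors 2 of 9 were higher, with a median of -0.28, and both fibroblast markers tested were higher, with a median of 0.72. The labels do not say what separates the sets, and the part of RNA selection or of the cells in the histone difference was not tested.

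In differentiating cells the H1 RNA Hist1h1c fell most. It read 2.89 and 3.10 RPKM at 0 h, 2.82 and 2.69 at 8 h, 2.59 and 2.80 at 16 h, 3.58 and 3.66 at 24 h, and 0.969 and 0.883 at 48 h. The 48 h libraries lay under all others, and the 24 h libraries above all others. At 48 h against 0 h its log2 change was -1.29 (SE 0.06, adjusted p 6.55e-10, limma), and at 24 h it was 0.24 (SE 0.06, adjusted p 0.00259). Hist1h2bc read 4.34 and 4.24 RPKM at 0 h, 3.38 and 3.40 at 8 h, 3.82 and 4.06 at 16 h, 4.38 and 4.65 at 24 h, and 2.90 and 2.98 at 48 h. It was lower at 8 h (-0.30, SE 0.05, adjusted p 0.000253) and at 48 h (-0.48, SE 0.05, adjusted p 1.54e-06), with no overlap with 0 h at either time.

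Hist1h4i took another course. It read 3.37 and 3.23 RPKM at 0 h, 4.23 and 4.53 at 8 h, 3.23 and 3.58 at 16 h, 4.99 and 4.18 at 24 h, and 3.69 and 3.76 at 48 h. It was higher at 8 h (0.36, SE 0.07, adjusted p 0.00124) and at 24 h (0.41, SE 0.07, adjusted p 0.000256), and its 48 h change of 0.15 (SE 0.07, adjusted p 0.0692) did not pass. Hist1h1a, at 0.579 and 0.515 RPKM at 0 h, did not pass at any time (48 h: -0.02, SE 0.08), but under quantile normalisation it was lower at 16, 24 and 48 h (-0.29, -0.41 and -0.29, adjusted p 0.00706, 0.000636 and 0.00482).

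Of 4 members tested in this course, 1 rose and 1 fell at 8 h, where 55.8% of 12220 genes were called (23.4% higher, 32.4% lower). At 16 h 0 passed in limma, against 70.9% of genes, with 2 at an unadjusted p under 0.05 and a smallest adjusted p of 0.0573. At 24 h 2 rose and 0 fell (74.6% called, 35.8% higher, 38.8% lower). At 48 h 0 rose and 2 fell (84.3% called, 44.4% higher, 39.9% lower). With most genes called, these counts of 4 members show nothing about the group. Among the members too low for the test, the H2B genes Hist2h2be and Hist3h2ba read more at 48 h: Hist2h2be 0.514 and 0.566 RPKM against 0.237 and 0.285 at 0 h, and Hist3h2ba 0.510 and 0.824 against 0.101 and 0.120. The H2A gene Hist3h2a read 0.285 and 0.176 against 0.101 and 0.131. The H2B genes Hist1h2bp and Hist1h2be read less, Hist1h2bp 0.135 and 0.250 RPKM at 48 h against 0.329 and 0.486 at 0 h, and Hist1h2be 0.0747 and 0.0673 against 0.106 and 0.109. In each of these 5 genes the 48 h and 0 h libraries lie apart, as they also do in Hist1h2bb (lower) and Hist1h4b (higher). The same 5 pass in limma when the filter on low values is dropped (log2 0.45, 0.92, 0.24, -0.39 and -0.09). Hist1h2bb, Hist1h4b, Hist1h3b and Hist1h4j do not. The share of all genes that pass without the filter, or that lie apart, is not given here. With 84.3% called in the filtered fit, these passes show nothing about the group. All 5 have AATAAA near the end of a model, whether higher or lower, as do 7 of the 13 members listed in this course. Hist1h4j also has it and did not pass. In Hist1h2bp and Hist1h2be it stands in 1 model, while another model holds a stem-loop.

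**Figure D4:**
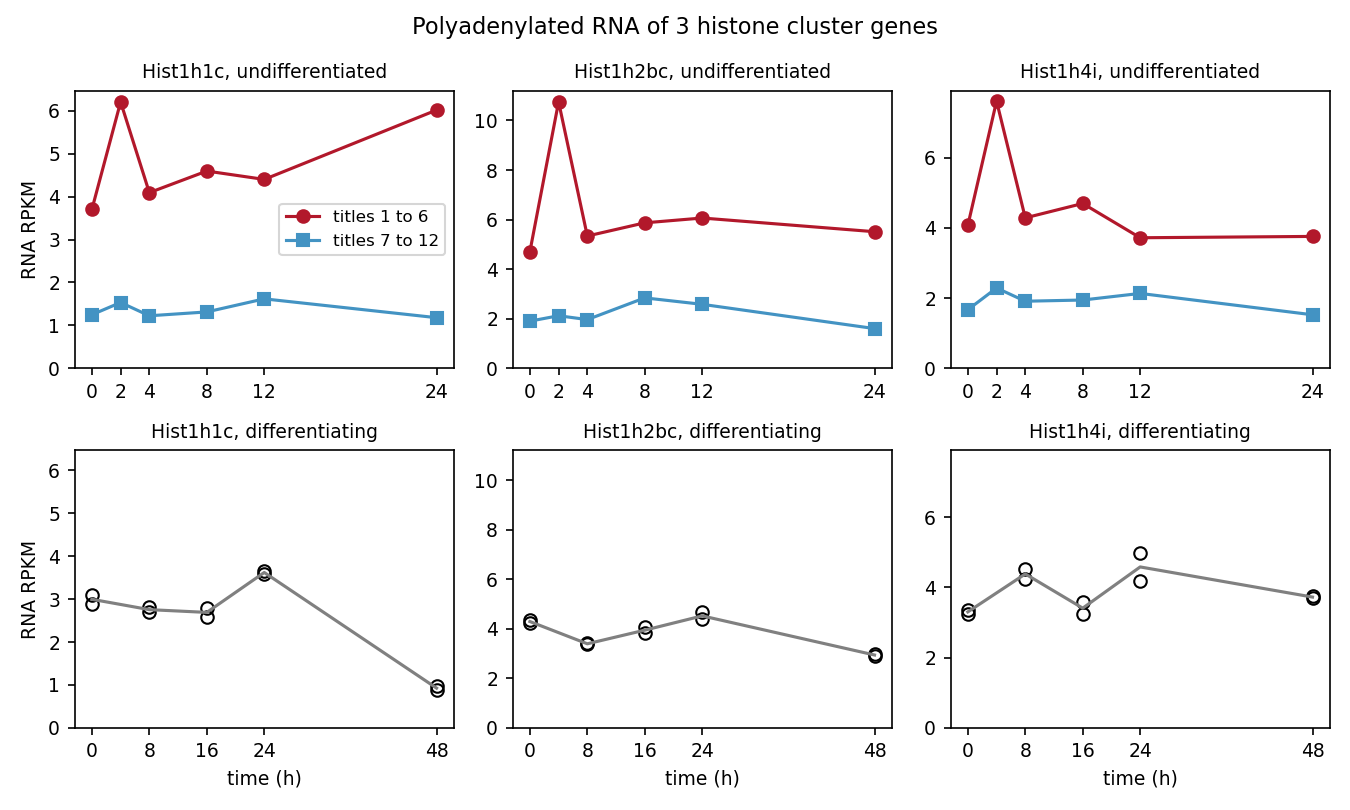
Polyadenylated RNA (RPKM, axes from 0) of 3 histone genes against hours, in undifferentiated cells (upper row, titles 1 to 6 and 7 to 12 as separate lines) and differentiating cells (lower row, points per library, line through the means). The title sets are apart at every time, and Hist1h1c is at 0.969 and 0.883 RPKM at 48 h of the differentiating course.

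The B6 share of Hist1h4i was far higher in polyadenylated than in nascent RNA. It was 85.6% to 100% over 12 undifferentiated RNA libraries (median 94.2%) and 86.7% to 97.6% over 10 differentiating ones (median 94.1%), against 51.5% to 62.6% over 10 PRO-seq libraries (median 57.8%), with no overlap. Hist1h2bc ran from 59.1% to 85.6% and from 68.4% to 82.6% in the RNA courses (medians 74.3% in each), against 48.5% to 66.7% in nascent RNA (median 61.1%). Hist1h1c ran from 13.3% to 56.3% and from 15.0% to 34.4% (medians 29.2% and 22.5%), against 28.3% to 41.2% (median 34.6%), so those ranges overlap. The H4 gene Hist1h4b had 70% in 1 undifferentiated and 86.7% and 92.3% in 2 differentiating RNA libraries, against 50.8% to 59.6% in nascent RNA. Hist3h2a went the other way, with RNA medians of 42.2% and 43.9% against 55.9%, and its ranges overlap. Of the 50-base windows of Hist1h4i, 28.9% are shared with other histone transcripts. Read counts behind the RNA shares are not in the tables, so their depth is unknown, and the kinds of library were not tested against each other.

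Between 48 h and 0 h of differentiation, Hist1h4i had B6 shares of 97.6% and 97.4% at 48 h and 86.7% and 91.7% at 0 h, without overlap. In limma on the log2 odds this was a difference of 1.86 (SE 0.45, adjusted p 0.0265), 1 of 3 members tested, against 22.9% of 10225 genes called (10.5% higher, 12.4% lower). It did not pass without 0 h replicate 1 (adjusted p 0.125), 48 h replicate 1 (0.104) or 48 h replicate 2 (0.0935). In undifferentiated cells 0 of 3 passed in limma, against 0.873% of 9854 genes, and 0 had an unadjusted p under 0.05.

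**Figure D5:**
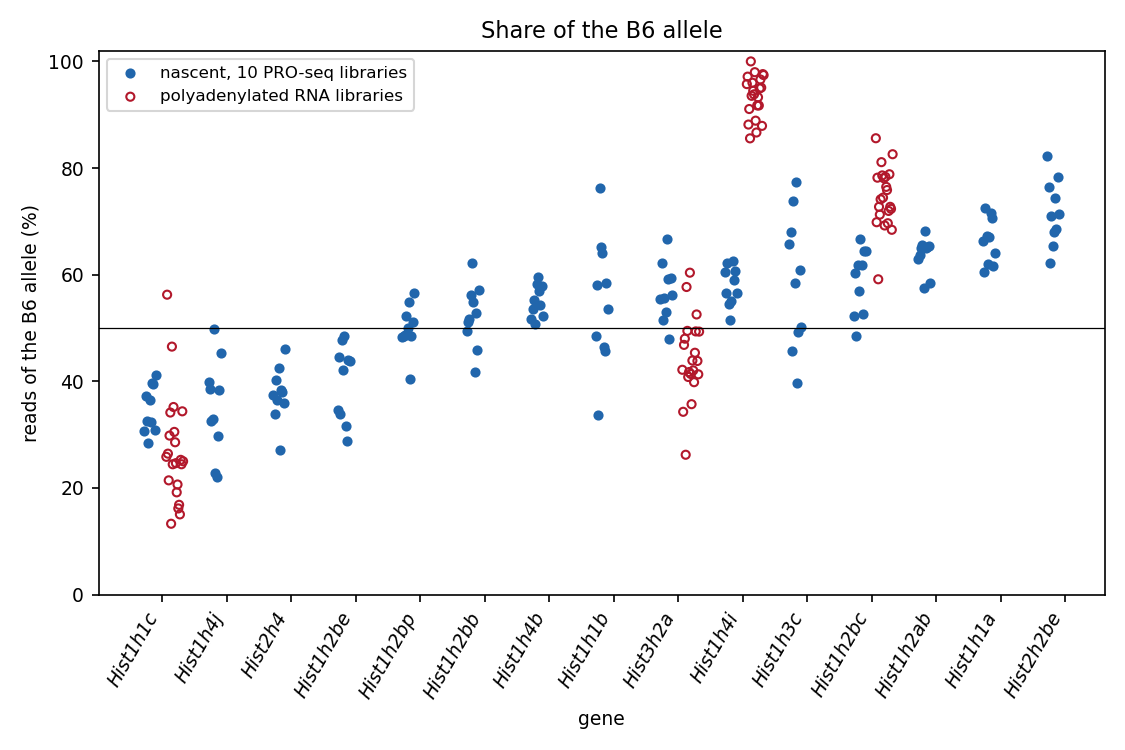
Share of reads from the B6 allele (%) for histone genes with at least 300 allele reads at 0 h, with filled points for the 10 PRO-seq libraries. Open points, for the polyadenylated RNA libraries that give a share, are drawn only for Hist1h4i, Hist1h2bc, Hist1h1c and Hist3h2a. Some other genes, such as Hist1h1a, also have RNA shares, which are not drawn. Hist1h4i is near 58% in nascent RNA and near 94% in polyadenylated RNA, while Hist1h1c is below 50% in nascent RNA.

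Genes that serve the histone cluster genes were described in the same fits. Between 24 h and 0 h of PRO-seq, 0 genes of the S phase, histone mRNA processing, histone chaperone or replication-independent histone lists passed, and their median log2 changes were -0.01, 0.11, 0.11 and 0.08. In differentiating cells at 48 h, 8 of 40 S phase genes rose and 26 fell, with a median of -0.19 against 0.03 over all genes. Over all 12220 genes 84.3% were called at 48 h, 44.4% higher and 39.9% lower, and no list was tested against that background. E2f2 (-1.52) and E2f3 (-0.59), transcription factors of S phase entry, were among those that fell. Of 19 histone mRNA processing genes, 6 rose and 11 fell. Coil (-0.74), the scaffold of Cajal bodies, and Ncbp2 (-0.76), a subunit of the cap-binding complex, fell, and Zfp473 (0.81), which in human is the ZNF473 protein of the U7 processing machinery, rose.

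Of 20 histone chaperone genes, 6 rose and 12 fell, among them the H3-H4 chaperone Asf1b (-1.08) and the FACT subunit Ssrp1 (-0.66), while the CAF-1 subunit Chaf1b rose (0.74). Of 11 replication-independent histone genes, 5 rose and 5 fell, with H2afz at -0.99, H2afy at -0.88 and H2afv at 0.93. Of 18 mitosis and G2 genes, 11 rose and 3 fell, including Ccnb1 (0.54) and Ccnb2 (0.58). Among cell cycle inhibitors Cdkn1c (1.95) and Rb1 (0.89) rose and Cdkn1a (-0.85) fell. All 8 naive ES cell markers fell, with a median of -2.18, and all 6 formative and primed markers rose, with a median of 2.56, beside the fall of Hist1h1c and Hist1h2bc. Markers of other cell types were mixed at 48 h, with 3 higher and 2 lower of 5 trophectoderm markers, 1 and 1 of 2 primitive endoderm markers and 1 and 1 of 2 fibroblast markers. The 5 listed fibroblast markers summed to 8.24 to 40.8 RPKM over this course. The part of differentiation in the histone values was not tested.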

How the data were processed

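PRO-seq and poly(A)-selected RNA-seq (TruSeq Stranded mRNA) of TX1072 cells were deposited as 3 tables. The deposited PRO-seq table holds counts of B6, Cast and total allele-assigned reads per gene, B6 fractions and RPKM. Total equalled B6 plus Cast in all 213234 values. The deposited RNA tables hold RPKM and B6 fractions, without counts. Per the submitters' processing notes, HTSeq 0.6.1, SAMtools, TopHat2 2.1.0, cutadapt 1.8.2 and Bowtie 1.0.0 were used with mm10. Their roles, the allele assignment, strand use and multi-mapping rules are not given in the sources used here.

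Counts were tested with edgeR 4.0.16 (quasi-likelihood, TMM, filterByExpr; allelic model with library and allele by time, mean of at least 20 allele reads), with DESeq2 1.42.0 as an alternative. RPKM was tested with limma 3.58.1 (trend, robust) on log2(RPKM + 0.5), mean of at least 0.5, and fractions on the log2 odds with a pseudocount of 0.01, mean of at least 1 RPKM and a share in every library. Tests were two-sided, with Benjamini-Hochberg adjustment over all genes and a threshold of 0.05. Wilson 95% intervals cover counting error only. Empty count cells were taken as 0. In simulated PRO-seq totals of 16870 genes, with 200 changed by 2 on the log2 scale, 192 were recovered with 22 false calls, and smaller changes were not simulated.

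The letters A and B of PRO-seq were checked as pairs (r = 0.03), and they were not taken as pairs. Stem-loops were searched after base 250 of GENCODE M21 transcripts. Named were the 15 members highest at 0 h, members past a threshold, the 10 members highest in each RNA course, those with at least 300 allele reads at 0 h, up to 3 genes per list by adjusted p, and the 5 genes most alike. Members and lists were chosen with earlier results of these data known.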

Additional observations from a re-analysis of the deposited data

How the results depend on the processing

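With 2 libraries at 24 h and at 0 h, single libraries set several counts. Leaving out each replicate in turn gave 0 to 10 members past the threshold for nascent totals at 24 h (0 with all), 6 to 10 for B6:Cast at 0 h (11 with all), 0 to 1 for the B6 share at 48 h of differentiation (1), 0 to 1 for RNA at 16 h (0) and 2 to 3 at 48 h (2). A time left with 1 library is assumed to vary like the others. For Hist3h2a the log2 change at 24 h was -0.10 with all libraries and ran from -0.72 (without 0 h A) to 1.10 (without 0 h B). DESeq2 called 7 members for B6:Cast at 0 h. Without a filter on low values 5, 4 and 7 members passed at 16, 24 and 48 h of differentiation, since more members were tested. With the filter 70.9%, 74.6% and 84.3% of all genes were called at these times, so the counts show nothing about the group. Quantile normalisation gave 3 members at 16 h. At 48 h quantile normalisation moved the median of all genes by -0.10. Over all genes, nascent totals had 2 calls, 207 without a filter and 1259 without 0 h B. With a replicate block, 0 members passed for nascent totals, for the B6:Cast change and in undifferentiated RNA, and 2, 0, 2 and 2 at 8, 16, 24 and 48 h of differentiation, with 1 for the share, so no call of a member changed. Same-numbered libraries correlated by 0.32 to 0.91 in undifferentiated RNA and by -0.15 to 0.30 in the differentiating course, where the numbers follow accession order. Of 1031 values of single members under other settings, 906 kept their sign and side of the threshold, and 89 changed sign without passing it under either setting, so the signs of members that did not pass are not stable. Another 18 came to pass and 17 no longer did. The sparse allele-assigned reads of these genes limit the count tests, and the RNA tables give no depth.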
